A study of Mus musculus with 6 samples.

Results

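Glycolysis and hypoxia-response genes are 34 of the 20071 genes in the deposited count table, chosen by symbol: 24 genes of glucose use, which are glucose transporters, glycolytic enzymes, lactate genes and flux regulators, and 10 genes of the hypoxia response, which are hypoxia-inducible factors (HIFs), prolyl hydroxylases and HIF targets. The rule used symbols only. The series compared mouse bone marrow mesenchymal stem cells (MSCs) of 2 genotypes, Pcif1fl/fl littermates (controls) and Prrx1-Cre;Pcif1fl/fl, with 3 poly(A) RNA-seq libraries of each (the latter called Prrx1-Cre libraries). PCIF1 is the enzyme that writes m6Am, a methyl mark on an adenosine at the start of capped mRNA. All MSCs came from femurs of 6-week-old mice, carried the floxed Pcif1 alleles and spent 7 days in osteogenic medium that contained dexamethasone (100 nM), β-glycerophosphate (5 mM) and ascorbic acid (50 μg/mL). Prrx1-Cre acts in limb mesenchyme, so cells of other origin in a culture would keep Pcif1. The sources do not say whether each library came from a separate mouse, and the design text speaks of duplicates where the labels give 3 replicates, so p-values measure only the spread between these libraries.

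Glycolysis splits glucose into pyruvate in the cytosol, and lactate dehydrogenase and monocarboxylate transporters turn pyruvate into lactate and carry it out of the cell. In low oxygen, HIF alpha subunits escape prolyl hydroxylation, pair with ARNT and switch on glucose transporters, glycolytic enzymes and genes such as Car9 and Bnip3. Osteoblasts are known for a high rate of aerobic glycolysis, and HIF alpha subunits act in bone cells to couple vessel growth to bone formation.

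The libraries held 20258209 to 28227696 counts. Counts were scaled by edgeR's TMM factors to the CPM scale, which sets all libraries to one common size, and entered, for 13733 genes, edgeR's quasi-likelihood test, and a gene was called at a Benjamini-Hochberg adjusted p under 0.05 (the edgeR adjusted p) at any fold change. Log2 fold changes are Prrx1-Cre over control, with their standard error (SE). Reads on the whole Pcif1 gene, which has exons outside the floxed block, had a log2 fold change of -0.085 (edgeR adjusted p = 0.645), so this count does not check the labels. Xist lay at 232 to 443 CPM in the controls and 0.722 to 1.79 CPM in the Prrx1-Cre libraries, and since the labels give no sex, the sex of the donors and the genotype cannot be told apart. The macrophage marker Lyz2 lay at 21980 to 26230 CPM over all 6 libraries, against 3485 to 6359 CPM for the mesenchymal marker Col1a1, so cultures labelled MSCs also held macrophage transcripts. In such bulk libraries fewer cells of a type and less RNA per cell cannot be told apart. Control replicate 3 stood apart with 3.63% of its counts on mitochondrial genes, against 1.40% to 1.57% in the other libraries.

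Of the 34 genes, 33 passed the filter on low counts, and 5 were called, or 15.2%, against 7.40% of all genes tested. The HIF alpha gene Epas1 and the lactate dehydrogenase gene Ldhb were lower in the Prrx1-Cre libraries, 2 genes where 4.51% of all genes were called lower. The glucose transporter gene Slc2a1, the enolase gene Eno2 and the transcription factor gene Bhlhe40 were higher, 3 genes where 2.88% of all genes were called higher. Epas1 alone also passed an absolute log2 fold change of 1, as did 3.53% of all genes. The remaining gene, Ankrd37, a small HIF target, was left untested at 4 to 9 counts a library.

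**Figure D1:**
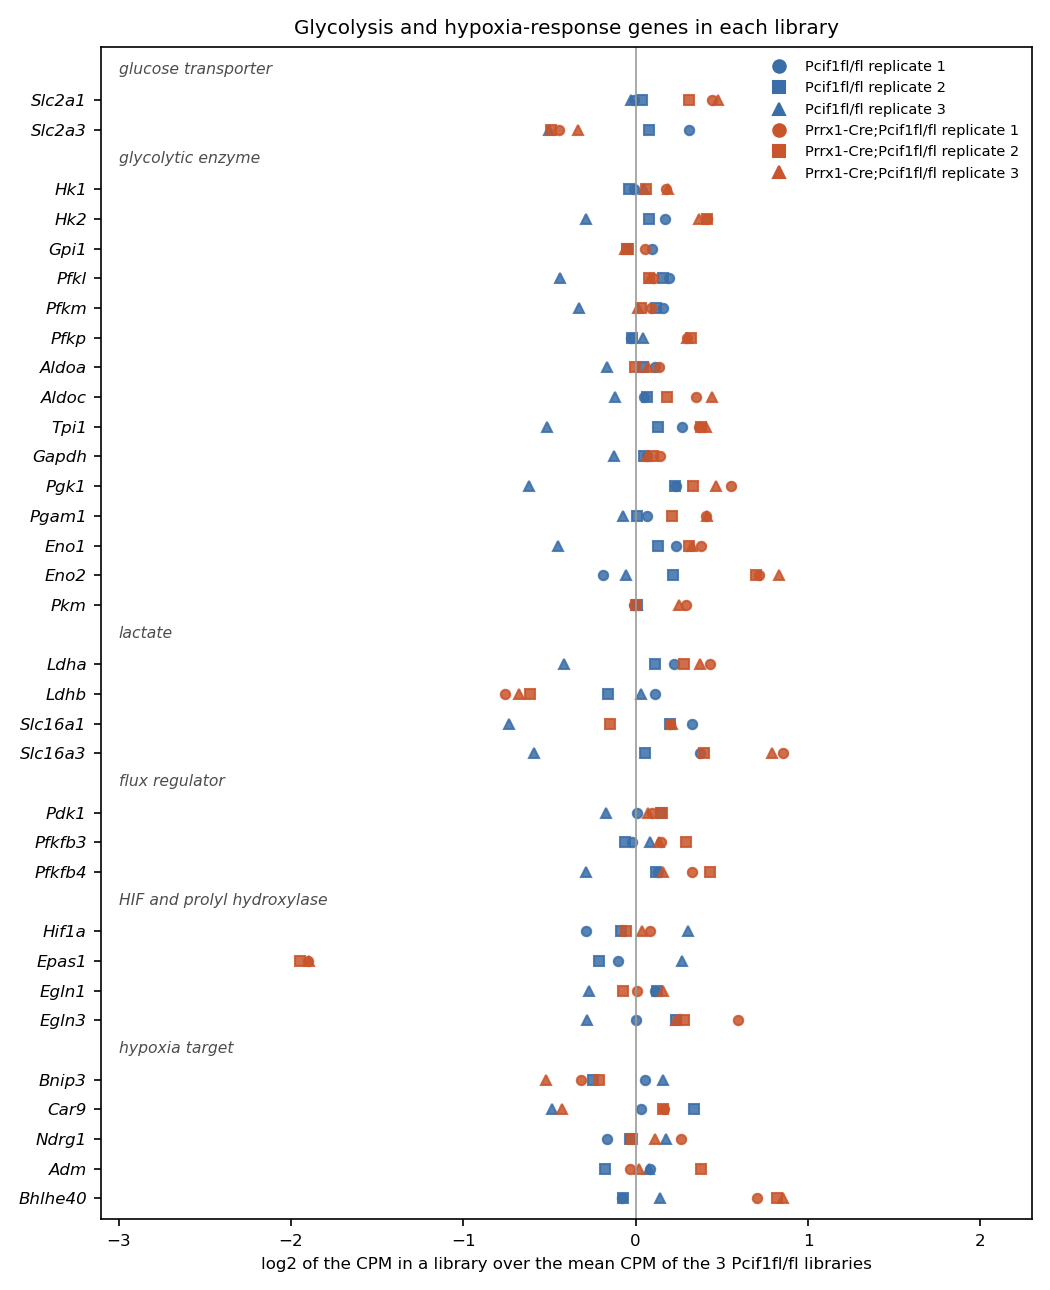
Level of each of the 33 tested genes in each of the 6 libraries, as log2 of its CPM over the mean CPM of the 3 controls (horizontal axis), grouped by role. Blue marks are Pcif1fl/fl and orange marks Prrx1-Cre;Pcif1fl/fl libraries. The 3 orange marks of Epas1 lie far left of all others, at a log2 fold change of -1.91, and the triangles of control replicate 3 lie left of the other controls for 21 of the genes.

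The genes of glucose use were read apart from those of the hypoxia response. Of the 24 genes of glucose use, 1 was called lower and 2 higher, or 12.5%, against 7.40% of all genes tested. In 21 the log2 fold change was above 0, as in 6908 of the 13733 genes tested. The median was 0.25 over the 24 genes and 0.0017 over all genes tested. In 14 of the 24 every Prrx1-Cre library lay above every control, as in 15.0% of all genes, and in 1, Ldhb, every one lay below, as in 15.7% of all genes. Of the 9 tested genes of the hypoxia response, 1 was called lower and 1 higher, the median was 0.036, and 1 gene lay without overlap in each direction. Epas1 is the gene below and Bhlhe40 the gene above. The difference between the groups of genes was not tested.

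The start regions of called genes are shown next because the data bear on genes that HIFs are known to bind. The RefSeq promoter table for GRCm38.p6 held 43 windows for 30 of the 34 genes, and Epas1, Bhlhe40, Slc2a3 and Ndrg1 were not matched. Each window was searched in its 250 bases before the start for the core of the HIF response element, ACGTG or GCGTG, on both strands, so that CACGTG counts once on each strand. Such a match was held by 35 of the 43 windows, or 81.4%, against 54.2% of 13658 windows of genes tested and 38.6% of all 32851 windows. The median GC content was 60.4% in these windows, 59.6% in those of genes tested and 52.4% in all. Below are the 150 bases before the start and the start base of the 3 called genes that had a window, and of Bnip3, a mitophagy receptor and textbook HIF target that was chosen after its value had been seen. Capitals mark the matches, read on either strand.
Slc2a1, chr4:119108595-119108745, plus strand: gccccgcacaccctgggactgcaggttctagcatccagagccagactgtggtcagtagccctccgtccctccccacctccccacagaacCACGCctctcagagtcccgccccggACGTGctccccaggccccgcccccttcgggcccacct
Eno2, chr6:124769673-124769823, minus strand: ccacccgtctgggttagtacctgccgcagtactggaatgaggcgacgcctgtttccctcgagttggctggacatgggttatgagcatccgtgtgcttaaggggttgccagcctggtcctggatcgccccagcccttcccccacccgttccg
Ldhb, chr6:142507957-142508107, minus strand: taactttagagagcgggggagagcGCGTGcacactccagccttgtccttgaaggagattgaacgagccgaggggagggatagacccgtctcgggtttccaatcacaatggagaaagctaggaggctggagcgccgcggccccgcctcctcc
Bnip3, chr7:138909506-138909656, minus strand: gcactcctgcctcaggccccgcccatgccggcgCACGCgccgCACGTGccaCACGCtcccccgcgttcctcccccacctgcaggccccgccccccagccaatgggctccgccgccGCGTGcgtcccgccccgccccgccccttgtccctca
The printed run holds 2 matches for Slc2a1, which was higher, 0 for Eno2, which was also higher, 1 for Ldhb, which was lower, and 5 for Bnip3, which was not called.

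Among the HIF alpha subunits, Epas1 fell and Hif1a did not pass the test. Epas1 (ENSMUSG00000024140, chromosome 17 from 86753700 to 86833410 on GRCm38) encodes HIF2A, the subunit known for vessel and red cell genes. It lay at 344, 318 and 444 CPM in control replicates 1 to 3 and at 98.7, 95.3 and 99.2 CPM in Prrx1-Cre replicates 1 to 3. The lowest control was thus above the highest Prrx1-Cre library by a wide gap, and the Prrx1-Cre libraries lay close together. The means were 368 ± 66.6 and 97.8 ± 2.12 CPM (SD, n = 3), a 3.77-fold difference, with a log2 fold change of -1.91 (SE 0.13, edgeR adjusted p = 0.000154). Epas1 was called under the 13 alternatives that set no fold threshold, with adjusted p up to 0.00344, and without control replicate 3, its highest library, the log2 fold change was -1.75.

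Hif1a (ENSMUSG00000021109), the subunit known for glycolytic genes, lay at 150, 172 and 226 CPM in the controls and 193, 176 and 187 CPM in the Prrx1-Cre libraries. All 3 Prrx1-Cre libraries fell inside the range of the controls. Its log2 fold change was 0.02 (SE 0.15, edgeR adjusted p = 0.952), and its sign turned when control replicate 1, control replicate 2 or Prrx1-Cre replicate 1 was left out (values down to -0.10).

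Because a share within a family does not depend on the scaling between libraries, the counts of Epas1 were also set against the sum of Hif1a and Epas1. Epas1 took 69.7%, 64.8% and 66.3% of that sum in the controls and 33.8%, 35.2% and 34.7% in the Prrx1-Cre libraries. The majority alpha transcript by count was Epas1 in every control and Hif1a in every Prrx1-Cre library. The same held per length: Epas1 had 66.8 CPM per kilobase and Hif1a 38.7 in the controls, and 17.7 and 39.2 in the Prrx1-Cre libraries. The exact two-sided permutation p was 0.1, the smallest that 3 against 3 can give, and 0.2 after adjustment over 12 shares in 10 families.

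**Figure D2:**
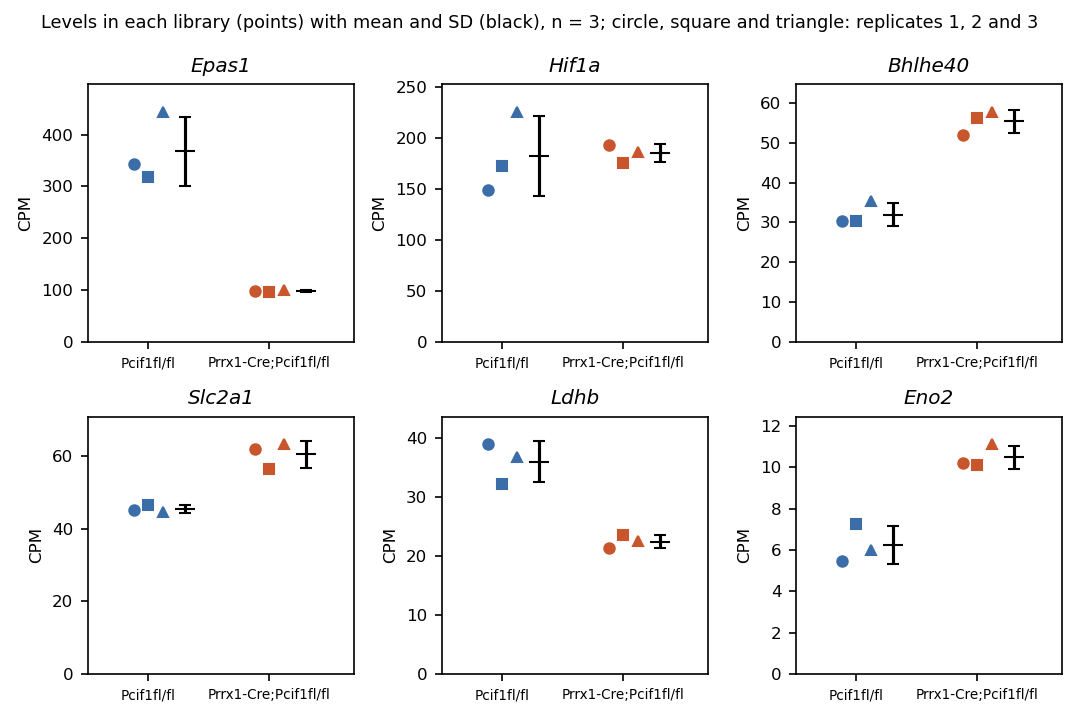
CPM (vertical axes, from 0) of Epas1, Hif1a and the 4 other called genes in each library, with control libraries in blue and Prrx1-Cre libraries in orange. Black bars give the mean and SD of 3 libraries. The genotypes do not overlap for any gene but Hif1a.

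The prolyl hydroxylases that mark HIF alpha subunits for decay were not called. Egln1, the main oxygen sensor, lay at 48.9 to 64.2 CPM in the controls and 56.0 to 65.9 CPM in the Prrx1-Cre libraries. Egln3, itself a HIF target, was low at 15 to 22 counts a library.

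Of the 6 HIF targets in the set, Bhlhe40 rose. It encodes a repressor of the basic helix-loop-helix family that HIFs induce, and lies on chromosome 6 from 108660629 to 108666925 (ENSMUSG00000030103). Its level was 30.2, 30.4 and 35.3 CPM in the controls and 52.0, 56.3 and 57.7 CPM in the Prrx1-Cre libraries. Every Prrx1-Cre library was above every control. This gave a log2 fold change of 0.79 (SE 0.11, edgeR adjusted p = 0.00294), a 1.73-fold difference called under the 13 alternatives that set no fold threshold, and not past an absolute log2 fold change of 1.

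The other 4 tested targets were not called, and their genotypes overlapped. Bnip3 lay at 15.3, 12.4 and 16.5 CPM in the controls and 11.8, 12.7 and 10.3 CPM in the Prrx1-Cre libraries (log2 fold change -0.34, edgeR adjusted p = 0.244). Its count is uncertain, since transcripts of 4 other genes match 94.2% of its length at 95% identity or more, and 22.3% of its exonic bases overlap an antisense gene. Car9, a carbonic anhydrase used as a marker of hypoxia, was low at 1.43 to 2.54 CPM over the 6 libraries. Ndrg1, a stress-response gene, lay at 26.1 to 35.2 CPM and Adm, which encodes the vasoactive peptide adrenomedullin, at 21.9 to 32.2 CPM over the 6 libraries. The summed level of the 6 targets was 100.2, 96.1 and 113 CPM in the controls and 126, 133 and 127 CPM in the Prrx1-Cre libraries. Bhlhe40 made up the larger part of that difference.

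GLUT1 and GLUT3 carry glucose into cells down its gradient. Slc2a1 (ENSMUSG00000028645, chromosome 4 from 119108711 to 119137983) encodes GLUT1, the transporter of basal glucose uptake. It lay at 45.1, 46.5 and 44.6 CPM in the controls and 61.8, 56.3 and 63.2 CPM in the Prrx1-Cre libraries. The controls lay close together, and every Prrx1-Cre library was above them. It had a log2 fold change of 0.41 (SE 0.09, edgeR adjusted p = 0.0318), a 1.33-fold difference. The call was lost, at a log2 fold change of 0.38 to 0.46 and an adjusted p of 0.0728 to 0.176, when control replicate 1 or 2 or any Prrx1-Cre replicate was left out.

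Slc2a3, which encodes the high-affinity transporter GLUT3, lay at 9.70, 8.27 and 5.52 CPM in the controls and 5.76, 5.58 and 6.21 CPM in the Prrx1-Cre libraries. The third control lay below all Prrx1-Cre libraries and the other controls above them. Its log2 fold change of -0.42 was not called (edgeR adjusted p = 0.314), and without control replicate 3 it was -0.61 with an adjusted p of 0.00835. Slc2a3 took 14.6% ± 3.37 of the counts of both transporters in the controls and 8.83% ± 0.261 in the Prrx1-Cre libraries (SD, n = 3), with no overlap (exact two-sided permutation p = 0.1, adjusted 0.2).

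Of the 15 glycolytic enzymes, only Eno2 was called, or 6.67%, against 7.40% of all genes tested. A log2 fold change above 0 was seen in 14 of the 15, and in 6908 of the 13733 genes tested. Eno2 (ENSMUSG00000004267, chromosome 6 from 124760053 to 124769673) encodes the gamma enolase known from neurons. It lay at 5.46, 7.24 and 5.99 CPM in the controls and 10.2, 10.1 and 11.1 CPM in the Prrx1-Cre libraries. Every Prrx1-Cre library was above every control. The log2 fold change was 0.75 (SE 0.15, edgeR adjusted p = 0.0215), a 1.68-fold difference. The adjusted p rose to between 0.0651 and 0.113 when control replicate 1 or any Prrx1-Cre replicate was left out. Per length, Eno2 remained far below Eno1, the enolase of most tissues, at 2.23 against 190 CPM per kilobase in the controls and 3.75 against 240 in the Prrx1-Cre libraries.

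Every Prrx1-Cre library lay above every control in 9 of the 15 enzymes, as in 15.0% of all genes tested. The 9 were Hk1, Hk2, Pfkp, Aldoc, Tpi1, Pgk1, Pgam1, Eno1 and Eno2. In 11 of the 15 enzymes control replicate 3 was the lowest of the controls, or 73.3%, as in 42.7% of all genes tested. Pgk1, the first ATP-yielding enzyme of the pathway, lay at 301, 299 and 167 CPM in the controls and 375, 322 and 353 CPM in the Prrx1-Cre libraries. The third control was far below the others, and the other controls lay closer to the Prrx1-Cre libraries than to it. The log2 fold change was 0.45 (edgeR adjusted p = 0.261), and without control replicate 3 it was 0.22 with an adjusted p of 0.0329. Pgk1 is X-linked, and transcripts of 4 other genes match 68.8% of its length.

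Without control replicate 3 the median difference of the enzymes was smaller and more of them were called. In that fit 6 of the 15 enzymes were called higher, Eno2 with Hk2, Pfkp, Tpi1, Pgk1 and Pgam1, or 40.0%, while 21.5% of all genes were called, which is 1447 genes lower and 1544 higher. Their log2 fold changes other than that of Eno2 were 0.19 to 0.33. The median over the 15 enzymes was 0.31 with all libraries and 0.19 without control replicate 3. The part of the mitochondrial share of that library in these values was not tested.

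**Figure D3:**
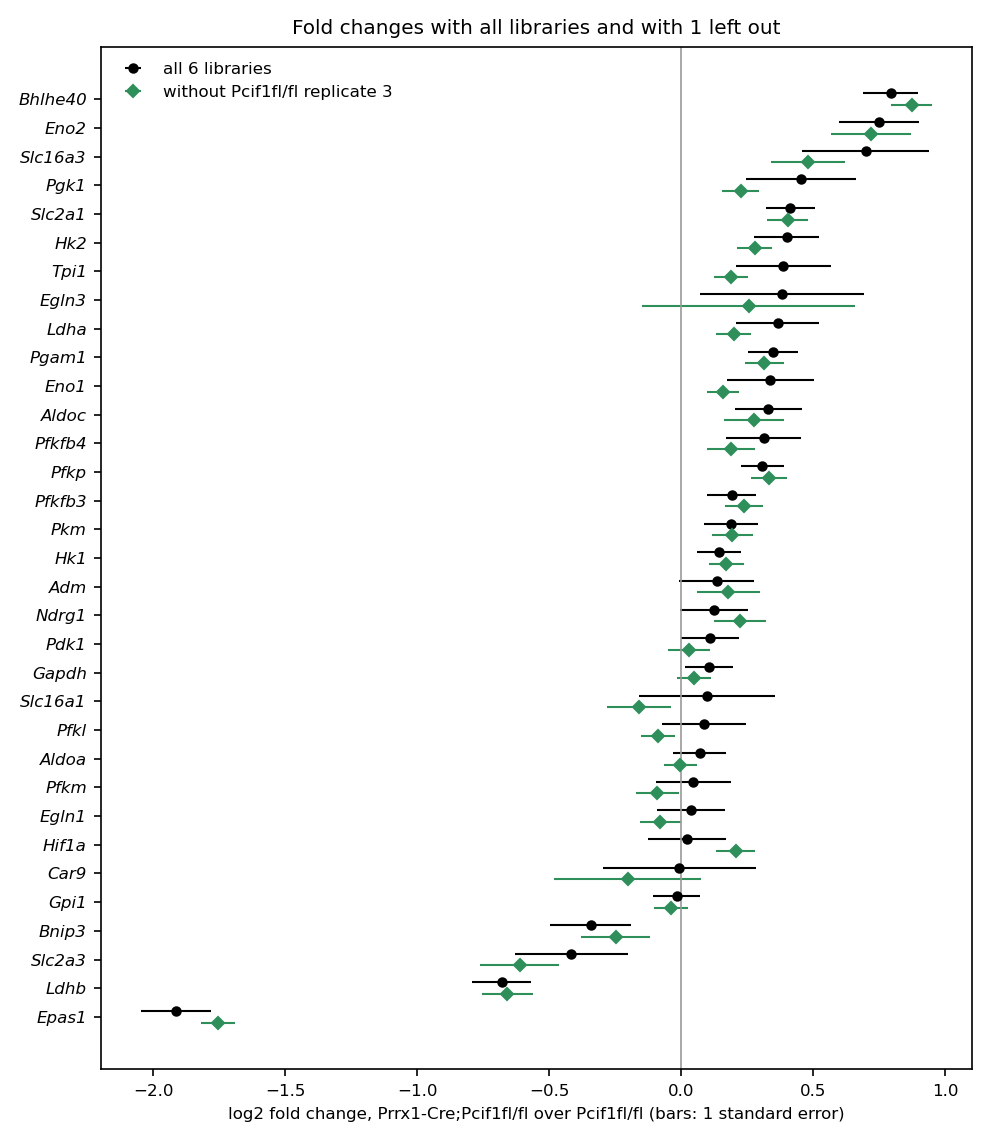
Log2 fold change (horizontal axis, Prrx1-Cre over control) of the 33 tested genes with all 6 libraries (black circles) and without control replicate 3 (green diamonds). Bars are 1 standard error. Epas1 is far left in both fits, and Pgk1, Tpi1, Eno1 and Ldha move towards 0 when control replicate 3 is left out.

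Pkm, which encodes pyruvate kinase M, the last enzyme of glycolysis, lay at 1696, 1716 and 1716 CPM in the controls and 2096, 1709 and 2031 CPM in the Prrx1-Cre libraries. Replicate 2 of the Prrx1-Cre libraries lay among the controls, and the other Prrx1-Cre libraries above. It had a log2 fold change of 0.19 (edgeR adjusted p = 0.347). Gapdh, the dehydrogenase often used as a reference gene, lay at 97.2, 95.9 and 84.9 CPM in the controls and 102, 99.5 and 97.0 CPM in the Prrx1-Cre libraries. The genotypes overlapped, with a log2 fold change of 0.10 (edgeR adjusted p = 0.561). Per length Gapdh had 65.3 CPM per kilobase in the controls against 109 for Tpi1 and 140 for Pgk1, its neighbours in the pathway. Transcripts of 79 other genes match 88.0% of the Gapdh transcript at 95% identity or more, and how reads that match several genes were counted is not given in the sources used here, so the level of Gapdh is uncertain. Such matches also cover 85.6% of Eno1, 65.5% of Pkm and 56.6% of Ldha, and none was found for Slc2a1, Eno2, Epas1, Hif1a or Bhlhe40.

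The remaining enzymes had log2 fold changes between -0.02 for Gpi1 and 0.40 for Hk2. Hk2, the inducible hexokinase, lay at 64.5 to 88.4 CPM in the controls and 102 to 105 CPM in the Prrx1-Cre libraries (edgeR adjusted p = 0.0983). Pfkp, the platelet-type phosphofructokinase, lay at 60.9 to 63.9 and 76.3 to 77.5 CPM (edgeR adjusted p = 0.0619), and the mutase gene Pgam1 at 190 to 209 and 232 to 266 CPM (edgeR adjusted p = 0.0634). Pfkp and Pgam1 were called by DESeq2. Pfkl, Pfkm and Aldoa had log2 fold changes of 0.05 to 0.09 that turned negative without control replicate 3. Summed over the 15 enzymes, the level was 4628, 4496 and 3991 CPM in the controls and 5279, 4664 and 5103 CPM in the Prrx1-Cre libraries. The lowest Prrx1-Cre library was just above the highest control.

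**Figure D4:**
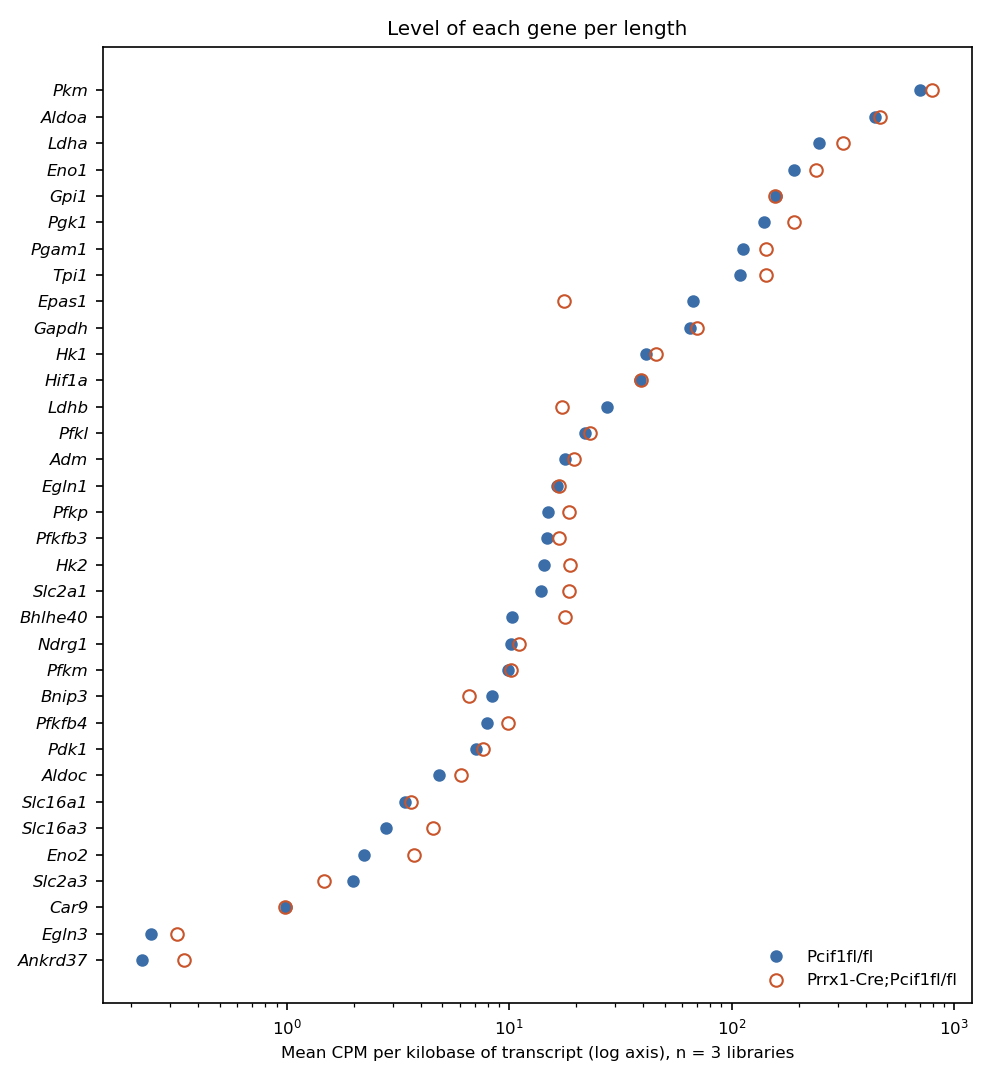
Mean CPM per kilobase of the principal transcript (horizontal log axis) of the 34 genes in 3 control libraries (filled blue) and 3 Prrx1-Cre libraries (open orange), in the order of the controls. Levels run from 703 for Pkm to 0.225 for Ankrd37 in the controls, and the open circle of Epas1 lies far left of its filled circle.

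Lactate dehydrogenase is a tetramer of A subunits, which favour lactate formation, and B subunits, which favour the return to pyruvate. Ldhb (ENSMUSG00000030246, chromosome 6 from 142490249 to 142507957) lay at 39.0, 32.2 and 36.9 CPM in the controls and 21.3, 23.6 and 22.5 CPM in the Prrx1-Cre libraries. Every Prrx1-Cre library was below every control. Its log2 fold change was -0.68 (SE 0.11, edgeR adjusted p = 0.00826), a 1.60-fold difference. Without Prrx1-Cre replicate 1 or 3 the adjusted p was 0.0626 or 0.0545, at log2 fold changes of -0.64 and -0.68. A transcript of 1 other gene matches 76.8% of the Ldhb transcript, so part of its count could be shared.

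Ldha (ENSMUSG00000063229) lay at 508, 471 and 327 CPM in the controls and 588, 528 and 565 CPM in the Prrx1-Cre libraries. The genotypes did not overlap, with the third control again the lowest. The log2 fold change of 0.36 was not called (edgeR adjusted p = 0.229), and without control replicate 3 it was 0.20 with an adjusted p of 0.0424. Ldhb took 7.14%, 6.40% and 10.2% of the counts of both subunits in the controls and 3.50%, 4.28% and 3.83% in the Prrx1-Cre libraries. The genotypes did not overlap (exact two-sided permutation p = 0.1, adjusted 0.2).

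Lactate leaves cells through the monocarboxylate transporters. Slc16a3, which encodes the exporter MCT4, lay at 15.8, 12.6 and 8.07 CPM in the controls and 22.0, 16.0 and 21.0 CPM in the Prrx1-Cre libraries. The highest control and the lowest Prrx1-Cre library nearly met. The log2 fold change of 0.70 (SE 0.24) was not called (edgeR adjusted p = 0.133), and without control replicate 3 it was 0.48 with an adjusted p of 0.023. Slc16a1, which encodes MCT1, lay at 18.8, 17.3 and 9.04 CPM in the controls and 17.2, 13.5 and 17.4 CPM in the Prrx1-Cre libraries and overlapped. Slc16a3 took 45.6%, 42.3% and 47.2% of the counts of both transporters in the controls and 56.0%, 54.2% and 54.7% in the Prrx1-Cre libraries (exact two-sided permutation p = 0.1, adjusted 0.2). In this share control replicate 3 did not stand below the other controls.

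**Figure D5:**
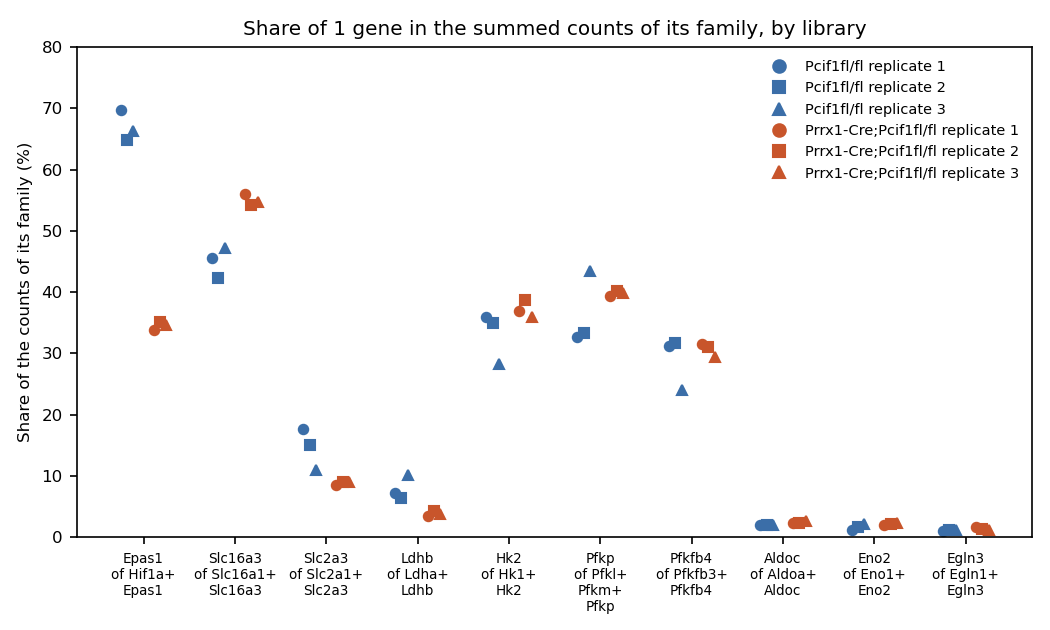
Share of 1 gene in the summed counts of its family (vertical axis, %) in each library for the 10 families, with control libraries in blue and Prrx1-Cre libraries in orange. The share of Epas1 falls from a mean of 66.9% to 34.6%, and those of Slc16a3, Slc2a3, Ldhb, Hk2 and Aldoc also do not overlap between genotypes.

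Of the 12 shares tested in the 10 families, 6 did not overlap between genotypes, and the phosphofructokinase shares are parts of the same sum. Shares were not computed for other gene families. For the levels of single genes, every Prrx1-Cre library lay below every control in 15.7% of all genes tested and above in 15.0%. Beside the shares given above, Hk2 took 33.0% ± 4.21 of the summed counts of Hk1 and Hk2 in the controls and 37.2% ± 1.44 in the Prrx1-Cre libraries (SD, n = 3). That sum leaves out the hexokinase gene Hk3, which had means of 118 CPM in the controls and 166 CPM in the Prrx1-Cre libraries. The Hk2 share is thus not one of all hexokinase counts. Aldoc, a minor aldolase, took 1.99% ± 0.0747 and 2.37% ± 0.163 of the counts of Aldoa and Aldoc (SD, n = 3). The Hk2 shares nearly met, at 35.92% in the highest control and 35.94% in the lowest Prrx1-Cre library, and their difference of 4.16 percentage points was 1.75 without control replicate 3. The shares of the phosphofructokinases, Eno2, Pfkfb4 and Egln3 overlapped. No share can pass 0.05 in this design.

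The 3 flux regulators set how much pyruvate and fructose bisphosphate are made or used. None was called by edgeR's quasi-likelihood test, DESeq2 or limma-voom, and 0 of 3 had an unadjusted p under 0.05. Pfkfb3 and Pfkfb4, which make the activator of phosphofructokinase, had log2 fold changes of 0.19 and 0.31 with no overlap, and Pfkfb3 was called without control replicate 3 (log2 fold change 0.24, edgeR adjusted p = 0.0282). In the same fit Pfkfb4 was not called (log2 fold change 0.19, edgeR adjusted p = 0.161). Pdk1, a kinase that inhibits pyruvate dehydrogenase and so the conversion of pyruvate to acetyl-CoA, lay at 32.7 to 40.7 and 38.7 to 40.9 CPM.

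Genes of neighbouring pathways give the setting, in lists that hold none of the 34 genes. Their counts of calls are to be read against the 4.51% of all genes tested that were called lower and the 2.88% called higher. The share called was 15.4% for mitochondrial pyruvate import and use, 7.69% for glycogen metabolism, 16.7% for HIF pathway factors and 15.2% for further hypoxia targets, beside 7.40% of all genes, while 1 of 10 genes was called for the pentose phosphate pathway and 2 of 10 for hexose and lactate transport. These shares rest on 1 to 5 called genes a list. Of 13 genes of mitochondrial pyruvate import and use, which are the carrier, pyruvate carboxylase and the pyruvate dehydrogenase complex with its kinases and phosphatases, 2 kinases of pyruvate dehydrogenase were called lower, Pdk2 (log2 fold change -0.80, edgeR adjusted p = 0.0404) and the X-linked Pdk3 (-0.48, edgeR adjusted p = 0.0318). Both calls were lost without control replicate 1 or any single Prrx1-Cre replicate, with adjusted p up to 0.177 for Pdk2 and 0.167 for Pdk3, and that of Pdk3 also without control replicate 2. Of 10 genes of the pentose phosphate pathway, 1 was called lower, the X-linked G6pdx, its entry enzyme (-0.39, edgeR adjusted p = 0.041), and its adjusted p rose to as much as 0.2 when any library other than control replicate 3 was left out. Of 13 genes of glycogen metabolism, 1 was called lower, Ppp1r3c, which targets a phosphatase to glycogen, at 7.35 to 9.00 CPM in the controls and 1.59 to 2.25 CPM in the Prrx1-Cre libraries (-2.08, edgeR adjusted p = 0.000463).

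Of the 10 tested genes of other hexose and lactate transport, 2 were called lower. Emb, which encodes the partner protein of MCT2, lay at 243 to 310 CPM in the controls and 144 to 163 CPM in the Prrx1-Cre libraries (log2 fold change -0.79, edgeR adjusted p = 0.00541). Slc2a4, the gene of the insulin-responsive transporter GLUT4 of fat and muscle, had 33, 44 and 41 counts in the controls and 2, 2 and 6 in the Prrx1-Cre libraries. None of 9 other glycolytic enzymes and none of 4 genes of gluconeogenesis was called by edgeR's quasi-likelihood test, DESeq2 or limma-voom. At an unadjusted p under 0.05 in edgeR, 3 of the 9 and 0 of the 4 passed.

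Among 12 further factors of the HIF pathway, 1 was called lower and 1 higher. Hif3a, the third alpha subunit gene, lay at 12.7, 14.2 and 21.3 CPM in the controls and 7.79, 7.82 and 7.70 CPM in the Prrx1-Cre libraries (log2 fold change -1.05, edgeR adjusted p = 0.017). Eloc, a subunit of the ligase that degrades HIF alpha subunits, was higher (0.46, edgeR adjusted p = 0.0342). Both calls were lost when any Prrx1-Cre replicate was left out, with adjusted p up to 0.0845 for Hif3a and 0.163 for Eloc, and that of Eloc also without control replicate 1 or 2. Thus 2 of the 3 alpha subunit genes, Epas1 and Hif3a, were called lower, and Hif1a was not called.

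Of 33 further hypoxia targets, 2 were called lower and 3 higher, with a median log2 fold change of 0.03. Stc1, a secreted glycoprotein hormone gene, had 176, 149 and 325 counts in the controls and 22, 15 and 15 in the Prrx1-Cre libraries (log2 fold change -3.32, edgeR adjusted p = 0.000749), and Mxi1, a MYC antagonist, was lower at -0.53 (edgeR adjusted p = 0.0446). Among those called higher were Tpd52 (log2 fold change 0.42, edgeR adjusted p = 0.0215) and the oxidoreductase Ero1a of the endoplasmic reticulum (0.38, edgeR adjusted p = 0.0357). The calls of Mxi1, Tpd52 and Ero1a were lost when any Prrx1-Cre replicate or control replicate 2 was left out, those of Tpd52 and Ero1a also without control replicate 1, with adjusted p up to 0.193 for Mxi1, 0.13 for Tpd52 and 0.17 for Ero1a. The call of Stc1 held under the 13 alternatives without a fold threshold.

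Markers of cell types moved beside these results in part. The summed level of 13 macrophage genes was 32110 to 35530 CPM in the controls and 33070 to 36240 CPM in the Prrx1-Cre libraries, and 0 of 13 were called by edgeR (3 at an unadjusted p under 0.05, and 2 called by DESeq2). The 11 mesenchymal genes summed to 9081 to 11890 and 15580 to 16370 CPM, with 6 called higher and 2 lower. The 9 adipocyte genes in the count table summed to 912 to 1143 and 888 to 1126 CPM, and of the 8 tested 5 were called lower and 0 higher. DESeq2 called 5 of 9 lower and 1 higher, and 1 was higher at an unadjusted p under 0.05 in edgeR. Adipoq, among those called lower, lay at 42.9 to 53.8 CPM in the controls and 0.289 to 1.49 CPM in the Prrx1-Cre libraries. Plin1 was at 0 in all 3 Prrx1-Cre libraries. The 10 osteoblast genes, Col1a1 among them, summed to 14590 to 20720 and 17890 to 26650 CPM, with 3 of 9 tested called lower and 1 higher. The 6 endothelial genes summed to 24.3 to 37.3 and 21.1 to 23.3 CPM, and 0 were called by edgeR (1 at an unadjusted p under 0.05, and 1 called lower by DESeq2). The 10 cell cycle genes summed to 366 to 488 and 292 to 339 CPM, with 1 called lower by edgeR, 4 by DESeq2 and 6 lower at an unadjusted p under 0.05 in edgeR. Only 3 of 8 erythroid and 5 of 8 muscle genes were in the count table, and these summed to at most 0.722 and 3.67 CPM. The part of these cell types in the levels of Epas1, Slc2a4, Ldhb and the other genes was not tested.

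PCIF1 marks adenosine start bases, so the start base of the promoter windows was read. It was A in 18 of the 43 windows, or 41.9%, against 29.5% of windows of genes tested. Of the 20 tested genes with 1 window, 8 began with A, among them Hk2, Pfkp, Hif1a and Bnip3, with a median log2 fold change of 0.12, and 12 began with another base, among them Slc2a1, Eno2 and Ldhb, with a median of 0.36. The genes of the hypoxia response with A were Adm, Bnip3, Car9 and Hif1a, and those with another base Egln1 and Egln3. Median log2 fold changes were 0.036 for the hypoxia response and 0.25 for glucose use, so start base and gene group cannot be told apart here. Over all genes tested with 1 window the medians were 0.0005 for 2399 genes with A and 0.0095 for 6100 genes with another base. None of the 3 called genes with a window began with A. These medians are a description of annotated starts, not of measured methylation.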

How the data were processed

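The authors mapped reads to mm10 with HISAT2 and deposited raw read counts per gene, with no normalization, while the tool and annotation for counting and its use of strand are not given in the sources used here. The table has 20163 rows, 92 of which list an ID again with identical counts, and each of the 20071 IDs was used once. GENCODE M21 (GRCm38, also called mm10) held 20059 of them. The 34 genes and all lists were chosen with earlier results of these data known. The fit over all genes, with no covariate, used edgeR 4.0.16 under R 4.3.3, with its filterByExpr, TMM, glmQLFit and glmQLFTest functions and Benjamini-Hochberg adjustment. Standard errors are the log2 fold change over the square root of F. Of the 34 genes, values in every library are given for those called, those uncalled without overlap and past 0.5 on the log2 scale in either direction, and Hif1a, Epas1, Gapdh, Pgk1, Ldha, Pkm and Slc2a1, and the others mostly by range. Of the other pathway lists, called genes are named. Lengths are those of the longest APPRIS principal transcript. Near-identical copies are matches of at least 150 bases at 95% identity or more (blastn, all GENCODE M21 transcripts). Shares were tested by exact permutation of libraries. Alternatives were DESeq2 1.42.0, voom of limma 3.58.1, RLE or total-count scaling, no filter on low counts, a filter at 10 counts on average, a block for the replicate number, a fold threshold, and each library left out. The fits were tested on simulated counts with larger changes than any of the tested genes of the set and with no library that stood apart. The recovery of small changes was not tested. Counting errors do not cover PCR duplication, and antisense or overlapping genes may share reads. A called gene of the list of further hypoxia targets is counted there and not reported here by name.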

Additional observations from a re-analysis of the deposited data

How the results depend on the processing

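The calls of Epas1 and Bhlhe40 held under the 13 alternatives that set no fold threshold, and that of Ldhb under 11, of Eno2 under 9 and of Slc2a1 under 7. With 3 libraries a group, the differences of some glycolytic enzymes (Tpi1, Pgk1, Eno1, Pfkl, Pfkm and Aldoa) depend on control replicate 3, and the cause was not tested. Over all genes, 620 were called lower and 396 higher, against 343 and 142 past 1 on the log2 scale, and 324 to 1447 and 148 to 1544 with 1 library left out. For the 34 genes, 2 were lower and 3 higher, against 1 and 0 at that fold and 1 to 3 and 1 to 11 with 1 library left out, and DESeq2 called 5 higher. At that fold, no gene of glucose use (transporters 0, enzymes 0, lactate genes 0) and 0 hypoxia targets or genes of the hypoxia response were called higher, and 0 of glucose use lower. DESeq2 called 3 glycolytic enzymes, 4 genes of glucose use and 5 other hypoxia targets higher and 2 genes of the pentose phosphate pathway lower. Limma-voom called 1 gene of mitochondrial pyruvate use and 1 other hypoxia target lower, and scaling by total counts called 0 HIF pathway factors higher.

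With the replicate block, 0 glucose transporters, 1 gene of glucose use, 0 HIF pathway factors and 1 other hypoxia target were called higher, and 0 genes of mitochondrial pyruvate use and 0 of the pentose phosphate pathway lower. Replicate numbers did not pair the libraries (correlations of same-numbered deviations 0.0554, -0.045 and -0.013), so that fit only shares numbers.

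With 1 library left out, counts of calls ranged as follows. Glucose transporters had 0 to 1 lower and 0 to 1 higher, glycolytic enzymes 0 to 6 higher, lactate genes 0 to 1 lower and 0 to 2 higher, flux regulators 0 to 1 higher, genes of glucose use 0 to 2 lower and 0 to 10 higher. Other glycolytic enzymes had 0 to 1 higher, mitochondrial pyruvate use 0 to 4 lower, gluconeogenesis 0 to 1 lower, the pentose phosphate pathway 0 to 3 lower, glycogen metabolism 1 to 4 lower and 0 to 1 higher, HIF pathway factors 0 to 2 lower and 0 to 1 higher, and other hypoxia targets 1 to 8 lower and 1 to 6 higher. The median log2 fold change of the hypoxia response, 0.036, ranged from 0.0491 to 0.1781. The difference of the Aldoc share, 0.377 percentage points, was 0.209 per length.

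Uncalled log2 fold changes near 0 changed sign. With 1 library left out, that of Gpi1 ranged from -0.0495 to 0.0338, Pfkl from -0.088 to 0.197, Pfkm from -0.0921 to 0.133, Aldoa from -0.0043 to 0.1303, Slc16a1 from -0.1617 to 0.291, Hif1a from -0.1009 to 0.2053, Egln1 from -0.0794 to 0.1031, Car9 from -0.2042 to 0.2023 and Adm from -0.0039 to 0.2139, and the log2 fold change of Car9 was 0.0141 with limma-voom.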
